A study of Homo sapiens with 3 samples.

Results

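The nuclear genes for subunits of the mitochondrial respiratory chain and ATP synthase were followed in 3 human prostate cancer cell lines. Members were the protein-coding genes outside the mitochondrial genome whose symbols carry the NDUF, SDH, UQCR, COX or ATP5 subunit stems, and the pattern took in 88 of 58735 annotated genes. It gave 39 genes of complex I, 4 of complex II, 9 of complex III, 15 of complex IV and 21 of complex V. RNA was sequenced from 1 library each of LNCAP, PC3 and DU145, all established lines that the labels call prostate cancer cells. LNCAP stands for ADPC in the design text, read here as androgen-dependent prostate cancer, while PC3 and DU145 stand for CRPC, castration-resistant disease that grows despite androgen deprivation. No treatment is named for any line. The labels list several serum-containing media without assigning one to a line, so medium and line cannot be told apart. Each line is 1 example of its class.

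Complexes I and II pass electrons from NADH and from succinate to ubiquinone, complex III passes them on to cytochrome c, and complex IV hands them to oxygen. Complexes I, III and IV pump protons across the inner mitochondrial membrane, and complex V, the ATP synthase, uses the resulting gradient to make ATP. Complex II also acts as succinate dehydrogenase in the tricarboxylic acid cycle and has no subunit from mitochondrial DNA, whereas the other complexes join nuclear and mitochondrially encoded subunits. Normal prostate epithelium is known for secreting citrate rather than oxidising it, and prostate cancer cells for regaining citrate oxidation.

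The libraries held 15319045 to 15878546 counts, and mitochondrially encoded genes took 7.97% of them in LNCAP, 4.35% in PC3 and 5.6% in DU145. The 5 luminal prostate markers looked at, which include KLK3, summed to 4677 scaled CPM (counts brought to a common library size) in LNCAP, 9.03 CPM in PC3 and had no counts in DU145. The epithelial markers KRT8, KRT18 and EPCAM summed to 738, 455 and 1608 CPM in the same order. The 6 markers of blood, endothelial and stromal cells summed to 11.6, 36.2 and 1.02 CPM, and the part of these differences in the results was not tested. With 1 library per line no difference below has a replicate check. All intervals are 95% counting intervals of the ratio of scaled counts, which cover counting error only, since PCR copies of a molecule cannot be recognised here. In bulk RNA, fewer cells expressing a gene and less RNA per cell cannot be told apart.

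The share of all counts that fell on members was 0.898% in LNCAP, 0.637% in PC3 and 0.613% in DU145. At least 1 library reached 1 CPM for 82 of the 88 members, and these were compared. The other 6 were the muscle isoform genes COX6A2 and COX7A1, the testis isoform gene COX8C, the ATP synthase copy ATP5MGL and the read-through models NDUFC2-KCTD14 and ATP5MF-PTCD1. COX6A2 and both read-through models had no counts in any library, COX7A1 had 8 counts in each, and COX8C and ATP5MGL had at most 5 counts.

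Levels of different genes were compared per length, as deposited FPKM. Summed over its members, complex I stood at 1180 FPKM in LNCAP, 942 in PC3 and 729 in DU145. Complex III stood at 471, 282 and 292 FPKM, and complex IV at 696, 597 and 507 FPKM. Complex V stood at 1286, 761 and 897 FPKM. LNCAP had the highest sum in these 4 complexes. In complex II LNCAP had the lowest sum, at 72.7 FPKM beside 94.0 in PC3 and 102 in DU145. The sum over all members was 0.722 times that of LNCAP in PC3 and 0.682 times in DU145.

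Single genes weighed heavily in these sums. ATP5F1B, the catalytic beta subunit of ATP synthase, had the highest level of all members at 634 FPKM in LNCAP, 363 in PC3 and 437 in DU145, and alone made 49.3%, 47.7% and 48.7% of the complex V sum. COX8A, a small complex IV subunit, led its complex at 229, 208 and 187 FPKM. NDUFS5 led complex I at 214, 162 and 81.2 FPKM. UQCRH, the hinge protein, led the complex III members at 125, 75.7 and 81.4 FPKM. CYC1, a complex III subunit outside the name rule, stood higher in the same libraries, at 135, 181 and 85.7 FPKM. The complex III sums above leave it out. SDHA, the flavoprotein that oxidises succinate, had the highest mean in complex II at 19.0, 29.6 and 36.6 FPKM, although SDHD was higher in LNCAP (24.1 FPKM) and SDHB in PC3 (30.9 FPKM), and SDHC, a membrane anchor, was the lowest there at 10.8, 10.0 and 13.6 FPKM. By the mean over the 3 libraries, the lowest compared members of the other complexes were NDUFA4L2 (0.828, 1.09 and 0.454 FPKM), UQCRHL (1.87, 1.1 and 0.906 FPKM), COX6B2 (0.0165, 0.136 and 0.334 FPKM) and ATP5S (3.54, 2.90 and 5.30 FPKM).

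**Figure D1:**
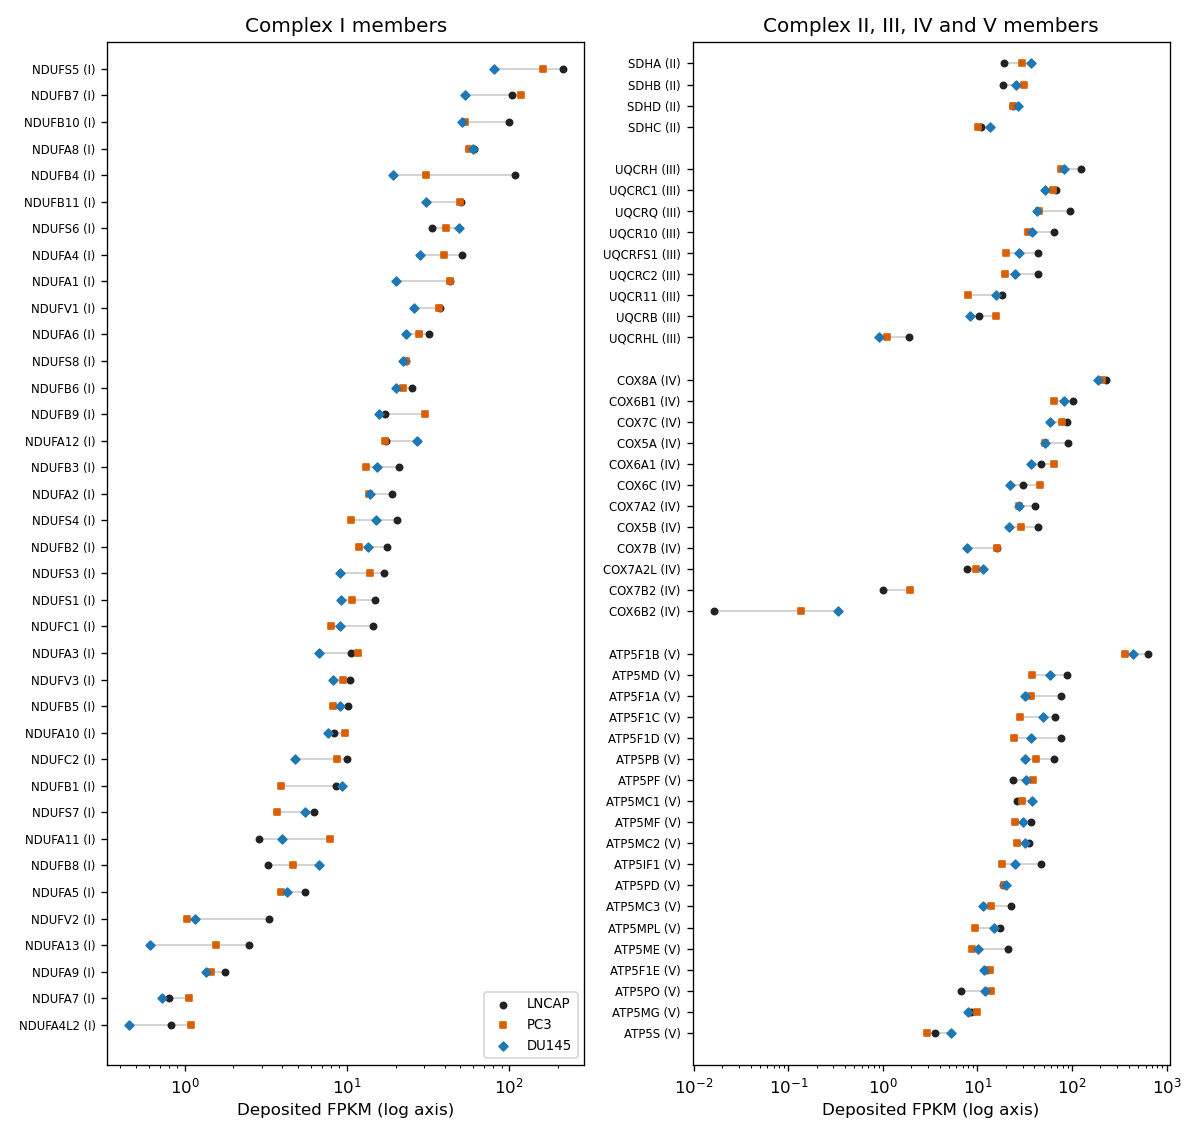
Deposited FPKM (log axis) of the compared members except 1 of complex I that is not shown, ordered within each complex by mean level, with 1 symbol per library. A value of 0 (COX7B2 in DU145) is not drawn; LNCAP lies to the right for most members of complexes III and V, and to the left for SDHA and SDHB.

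Set against LNCAP, PC3 had its lowest median ratios in complexes III and V. In PC3 13 of 82 members were at least 2-fold lower (15.9%), where 23.6% of all 18025 compared genes were, and 3 were at least 2-fold higher (3.66%), where 22.6% of all genes were. The share of lower members was thus no larger than the background. The median log2 ratio of the members was -0.30 and that of all compared genes was -0.01, with 60 members below 0 and 22 above. Among protein-coding genes at a mean of 20 CPM or more, 15.3% were at least 2-fold lower and the median was 0.06, beside 14.5% and -0.30 for the 69 members at that level. The medians by complex were -0.26 for I, 0.29 for II, -0.92 for III, -0.08 for IV and -0.64 for V.

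DU145 was set against the same LNCAP library, so both comparisons share it. In DU145 15 of 82 members were at least 2-fold lower (18.3%), beside 23.1% of all compared genes, and 2 were at least 2-fold higher (2.44%), beside 22.9%. The median log2 ratio was -0.46 for the members and -0.00 for all compared genes, with 66 members below 0 and 16 above. Among genes at a mean of 20 CPM or more, 14.5% of members and 14.7% of protein-coding genes were at least 2-fold lower, with medians of -0.42 and 0.06. By complex the medians were -0.46 for I, 0.35 for II, -0.67 for III, -0.55 for IV and -0.31 for V.

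**Figure D2:**
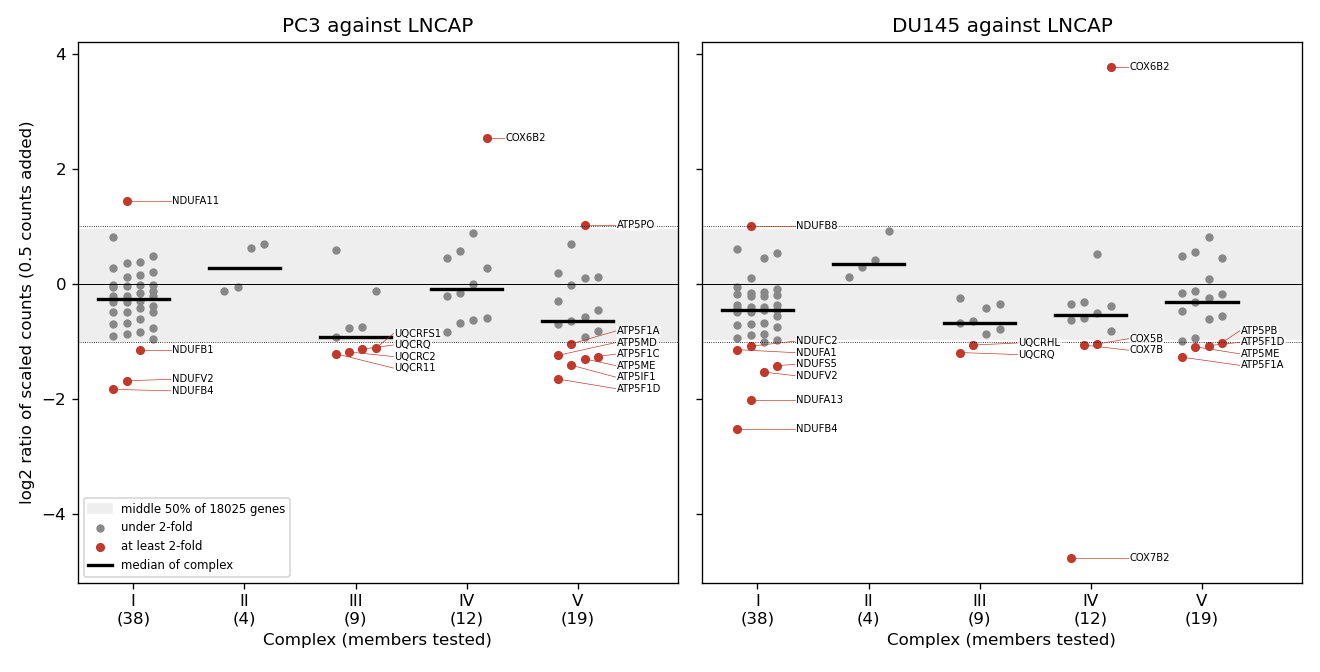
log2 ratio of scaled counts of each compared member in PC3 and in DU145 against LNCAP, by complex, with the complex median as a bar and the middle 50% of all 18025 compared genes in grey. Dotted lines mark 2-fold; most members lie within the grey band, complex II medians lie above 0, and COX7B2 in DU145 is drawn from a count of 0 with 0.5 counts added.

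At a 4-fold difference few members remained. No member was at least 4-fold lower in PC3 (13.3% of all genes were), and 1 was higher (13% of all genes). In DU145 3 members were at least 4-fold lower (12.1% of all genes) and 1 was higher (13.7%). The lower ones were NDUFB4, NDUFA13 and COX7B2, and the higher one in both lines was COX6B2. COX6B2 reached 1 CPM only in DU145 and COX7B2 only in PC3, so their calls rest on few counts.

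The class comparison asked which members separated PC3 and DU145 together from LNCAP. Its only residual is the difference between PC3 and DU145, which are different lines and not replicates, beside 1 LNCAP library. Its p-values therefore do not measure the spread between replicates. With edgeR's quasi-likelihood test no member passed an adjusted p of 0.05, and none of the 18025 genes did (0%), with 1 residual degree of freedom. NDUFB4 had the lowest log2 ratio of the members in this comparison, -2.14, and was lower in 2 of 2 CRPC libraries. DESeq2 gave it the same log2 ratio.

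Complex I holds a core of catalytic subunits and many accessory subunits that stabilise it. NDUFS1, which carries iron-sulfur clusters of the electron path, stood at 185.5 CPM in LNCAP, 132 in PC3 and 112 in DU145, 1.41-fold lower (1.33 to 1.49) and 1.65-fold lower (1.56 to 1.75). NDUFV1, which binds NADH and FMN, stood at 193, 188 and 131 CPM, and NDUFS8 varied little at 107, 106 and 101 CPM. The ratio of NDUFV1 in PC3 had an interval that included 1 (0.925 to 1.03).

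NDUFB4, an accessory subunit of the membrane arm (ENSG00000065518, chromosome 3, 120596309 to 120602500), had the largest difference among well-expressed members. It stood at 209 CPM in LNCAP, 58.6 in PC3 and 36.4 in DU145. That is 3.57-fold lower in PC3 (3.31 to 3.85) and 5.74-fold lower in DU145 (5.25 to 6.28). Its 12 annotated pseudogenes held 9, 3 and 0 counts, so adding them left the log2 ratios at -1.83 and -2.52.

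Several complex I members passed 2-fold against LNCAP in 1 line only. In LNCAP, PC3 and DU145 in turn, NDUFB1, an accessory subunit, stood at 19.6, 8.90 and 21.1 CPM, 2.21-fold lower in PC3 only (1.80 to 2.72). NDUFS5, another accessory subunit, stood at 119, 89.7 and 44.6 CPM, 2.68-fold lower in DU145 (2.46 to 2.93). NDUFC2 was 2.11-fold lower in DU145 (1.78 to 2.51), from 26.9 to 12.8 CPM. NDUFA1 and NDUFA13, both small membrane-arm proteins, were lower in DU145 too. NDUFA13 stood at 6.84, 4.25 and 1.66 CPM, and NDUFA1 at 33.8, 33.5 and 15.3 CPM. Higher members were NDUFA11 in PC3, at 14.1, 38.3 and 19.3 CPM (2.71-fold, 2.32 to 3.18), and NDUFB8 in DU145, at 6.65, 9.36 and 13.5 CPM (2.02-fold, 1.59 to 2.58).

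NDUFV2, the core subunit that carries an iron-sulfur cluster beside NDUFV1, had few counts (142, 43 and 49 for LNCAP, PC3 and DU145). It was 3.23-fold lower in PC3 (2.28 to 4.65) and 2.90-fold lower in DU145 (2.09 to 4.11). Its 1 annotated pseudogene held 32.7%, 59.8% and 42.4% of the counts of both together, and with them the log2 ratio went from -1.68 to -0.94 in PC3, under 2-fold, and from -1.53 to -1.31 in DU145. The values of NDUFV2 are therefore uncertain. NDUFA7, NDUFA13, NDUFB8, ATP5PO and COX8A share 32.3%, 21%, 33.8%, 19.6% and 34.5% of their exon length with other gene models of the same strand, and NDUFA7 had only 16 to 23 counts. Among members called in any pair, COX6B2 shares 30.9% and NDUFV2 28.4% on the same strand. Since strand handling is not known, overlaps with genes on the opposite strand count too. For called members the largest were 61.6% of ATP5ME (with MYL5), 44.5% of NDUFA1 (with RNF113A) and 20.8% of UQCRQ (with GDF9). Compared members that were not called shared up to 49.1% (NDUFS7), with 44.9% for NDUFB11 (with RBM10) and 35.1% for NDUFB2. ATP5F1E shares 23.2%, ATP5PF 23.1% (with GABPA and JAM2) and NDUFB9 21% (with MTSS1 and TATDN1) in this way.

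Complex II had medians above 0 in both lines, and its 2 catalytic subunits had their lowest level in LNCAP. SDHA stood at 162 CPM in LNCAP, 249.5 in PC3 and 307 in DU145, 1.54-fold higher (1.46 to 1.62) and 1.90-fold higher (1.81 to 1.99). SDHB, the iron-sulfur subunit, stood at 47.3, 76.7 and 62.6 CPM, 1.62-fold (1.48 to 1.78) and 1.32-fold higher (1.20 to 1.46). The membrane anchors differed less, with SDHC at 156, 143 and 193 CPM and SDHD at 69.5, 67.3 and 75.5 CPM. None of the 4 genes reached 2-fold in either line. SDHA has 3 annotated pseudogenes that held 17.8%, 11.6% and 19.6% of the joint counts, and with them its log2 ratios were 0.52 and 0.95 instead of 0.62 and 0.92.

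Complex III had the lowest median in both comparisons. UQCRC2, a core protein, stood at 235 CPM in LNCAP, 104 in PC3 and 129 in DU145, 2.26-fold lower in PC3 (2.13 to 2.40) and 1.81-fold lower in DU145 (1.72 to 1.92). UQCRFS1, the Rieske iron-sulfur protein that takes electrons from ubiquinol, stood at 153, 70.5 and 96.4 CPM. It was 2.17-fold lower in PC3 (2.02 to 2.33) and 1.59-fold lower in DU145. UQCRQ, a small subunit near the ubiquinone site, was lower by a like factor in both lines, at 144, 65.8 and 63.2 CPM (2.19-fold, 2.03 to 2.36, and 2.28-fold, 2.11 to 2.46). UQCR11 was 2.32-fold lower in PC3 (2.01 to 2.69) and stood at 39.8, 17.1 and 33.6 CPM. The other core protein, UQCRC1, differed little, at 225, 206.5 and 169 CPM. Among the complex III genes of the name rule, UQCRB alone was higher in PC3, at 102, 154 and 80.9 CPM (1.5-fold, 1.41 to 1.60). UQCRHL, an intronless copy of UQCRH, stood at 4.16, 2.42 and 1.98 CPM, and its reads may be shared with UQCRH.

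In complex IV the mitochondrial genome encodes the catalytic subunits and the nuclear members surround them. COX5A stood at 129 CPM in LNCAP, 72.8 in PC3 and 73.2 in DU145, 1.77-fold lower (1.65 to 1.91) and 1.76-fold lower (1.64 to 1.90). COX5B stood at 64.9, 42.2 and 31.5 CPM, 2.06-fold lower in DU145 (1.85 to 2.30). COX8A was close in all libraries at 118, 106 and 95 CPM. COX7A2L, which joins complexes III and IV into supercomplexes, was lowest in LNCAP at 44.8, 54.2 and 64.3 CPM. COX7B, on chromosome X, stood at 49.4, 49.3 and 23.6 CPM, 2.09-fold lower in DU145 (1.85 to 2.37) and equal in PC3 within counting error (0.902 to 1.11).

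Several nuclear subunits have a tissue-restricted isoform beside the widespread one. The widespread forms COX6A1, COX6B1, COX7A2, COX7B, COX8A and NDUFA4 stood between 23.6 and 186 CPM, and the restricted forms between 0 and 3.08 CPM. COX6B2, the testis form, had 1, 8 and 20 counts, 8.18-fold higher in PC3 (1.10 to 363) and 19.9-fold higher in DU145 (3.19 to 827). COX7B2, another testis form, had 13, 24 and 0 counts, at least 4.34-fold lower in DU145 than in LNCAP when DU145 is set at 3 counts and the LNCAP count is taken as exact. The counting interval of the same ratio reaches 0.327 of the LNCAP level. NDUFA4, now counted with complex IV by many, stood at 186, 143 and 101 CPM, and its paralog NDUFA4L2, known as a hypoxia-responsive gene, at 2.37, 3.08 and 1.28 CPM. With so few counts, the order of the libraries in the restricted isoforms is uncertain.

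Complex V consists of a catalytic F1 head, a rotating ring of c subunits, a peripheral stalk and small membrane subunits. The 5 genes of the head had a median log2 ratio of -1.04 in PC3 and -0.56 in DU145. ATP5F1A, the alpha subunit, stood at 843 CPM in LNCAP, 409 in PC3 and 349.5 in DU145, 2.06-fold (2.0 to 2.12) and 2.41-fold lower (2.34 to 2.49). ATP5F1B stood at 1500, 849.5 and 1015 CPM, 1.77-fold (1.73 to 1.80) and 1.48-fold lower (1.45 to 1.51). LNCAP was highest in both. ATP5F1C, the gamma subunit of the rotor, was 2.39-fold lower in PC3 (2.22 to 2.57), at 158, 66.1 and 114 CPM. ATP5F1D, the delta subunit, stood at 175, 55.8 and 83.4 CPM, 3.13-fold lower (2.90 to 3.39) and 2.1-fold lower (1.96 to 2.24). ATP5F1E differed little, at 65.4, 70.5 and 60.1 CPM.

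The other parts of the ATP synthase were mixed. The 3 ring genes ATP5MC1, ATP5MC2 and ATP5MC3 encode the same mature c subunit. ATP5MC1 was lowest in LNCAP at 70.4, 77.1 and 98.4 CPM, and ATP5MC3 was highest there at 155, 95.5 and 77.8 CPM. In the stalk, ATP5PB stood at 221, 142 and 108.5 CPM and was 2.03-fold lower in DU145 (1.92 to 2.16), while ATP5PO, the oligomycin-sensitivity protein, stood at 22.9, 46.6 and 40.6 CPM. ATP5PO was 2.03-fold higher in PC3 (1.79 to 2.32) and 1.77-fold higher in DU145 (1.56 to 2.02), and ATP5PF was 1.62-fold and 1.37-fold higher. ATP5IF1, the inhibitor of ATP hydrolysis, was 2.65-fold lower in PC3 (2.42 to 2.92), at 107, 40.4 and 56.2 CPM. ATP5ME, a small membrane subunit, was 2.47-fold (2.0 to 3.06) and 2.14-fold lower (1.75 to 2.62), and ATP5MD, a protein of the synthase dimer, was 2.36-fold lower in PC3 (2.13 to 2.61).

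The 2-fold line ran through a dense part of the distribution. In PC3 the members just inside it were ATP5PO (log2 ratio 1.02), ATP5F1A (-1.04), UQCRFS1 (-1.12) and UQCRQ (-1.13), and those just outside it NDUFS4 (-0.95), ATP5MPL (-0.92), UQCR10 (-0.92) and NDUFB10 (-0.91). In DU145 NDUFB8 (1.01), ATP5PB (-1.02), COX5B (-1.04) and UQCRHL (-1.06) lay just inside, and NDUFB7 (-1.0), ATP5MC3 (-0.99), NDUFB10 (-0.97) and NDUFS3 (-0.93) just outside.

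PC3 and DU145 were then compared with each other. Of 82 members 2 were at least 2-fold lower in PC3 (2.44%, beside 19.3% of all genes) and 8 were higher (9.76%, beside 18.5%), and the medians were 0.06 for members and 0.02 for all genes. NDUFB1 and COX6B2 were the lower ones. The higher ones were NDUFA1 (2.19-fold, 1.87 to 2.56), NDUFA13, NDUFA4L2, NDUFB7 (2.22-fold, 1.98 to 2.49), NDUFS5, COX6C (2.1-fold, 1.95 to 2.26), COX7B and COX7B2. No member was at least 4-fold lower in PC3 than in DU145 (10.6% of all genes), and 1 was at least 4-fold higher (8.54%), COX7B2. COX7B2 and COX6B2 passed the filter only through the library where each was highest. NDUFB7, an accessory subunit of complex I, stood at 56.7 CPM in LNCAP, 63.0 in PC3 and 28.4 in DU145.

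Members of different complexes can share a chromosome, and chromosomes 8, X and 21 were picked here from all that hold members. The 3 members on chromosome 8 (NDUFB9, UQCRB and COX6C) had log2 ratios of 0.82, 0.59 and 0.57 in PC3 against LNCAP. In DU145 they were -0.14, -0.34 and -0.50. The other compared protein-coding genes starting within 5 Mb of them had medians of 0.46, 0.80 and 0.96 in PC3, and of 0.56, -0.00 and 0.18 in DU145. The 3 members on chromosome X (NDUFA1, COX7B and NDUFB11) had -0.01, -0.00 and -0.02 in PC3, where their neighbours had medians of 0.34, 0.04 and 0.40. In DU145 they had -1.14, -1.06 and -0.74, with neighbour medians of -0.38, -0.96 and -0.31. On chromosome 21, ATP5PF and ATP5PO had 0.70 and 1.02 in PC3, with neighbour medians of 0.56 and 0.78, while NDUFV3, a complex I accessory subunit, had -0.16 with a neighbour median of 0.64. In DU145 ATP5PF, ATP5PO and NDUFV3 had 0.45, 0.82 and -0.36, with neighbour medians of 0.02, 0.42 and 0.20. Over the whole of chromosomes 8, X and 21, other compared protein-coding genes had medians of 0.23, 0.25 and 0.75 in PC3. The same medians were 0.14, -0.56 and 0.35 in DU145. For PC3 against DU145 they were 0.04, 0.74 and 0.21, beside member medians of 0.96, 1.06 and 0.20.

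Across all 82 members, the log2 ratio and the median of the neighbours had Pearson's r of 0.42 and Spearman's rho of 0.56 in PC3 against LNCAP. They were 0.27 and 0.53 in DU145 against LNCAP, and 0.32 and 0.53 in PC3 against DU145. These describe the libraries, since genes near each other share neighbours and the 3 pairs share libraries. NDUFB4 had a neighbour median of -0.24 beside its own -1.83 in PC3, and of -0.85 beside -2.52 in DU145. SDHA had 0.35 beside 0.62 in PC3 and 0.42 beside 0.92 in DU145. ATP5F1A was at -1.04 beside 0.15 in PC3 and at -1.27 beside -0.39 in DU145. NDUFV2, whose values are uncertain, was at -1.68 beside 1.18 in PC3 and at -1.53 beside 0.84 in DU145. ATP5S was at -0.30 beside 1.60 in PC3 and at 0.56 beside 1.52 in DU145. Copy number was not measured, and its part in these values was not tested.

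**Figure D3:**
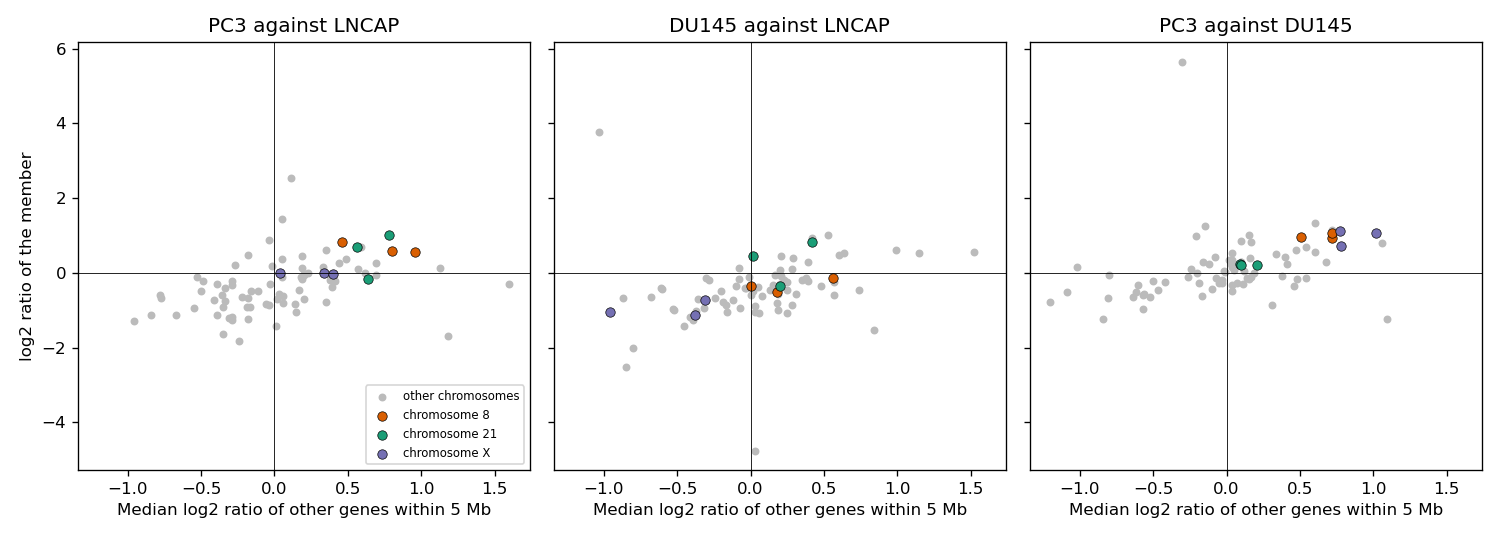
log2 ratio of each of the 82 members against the median log2 ratio of the other compared protein-coding genes that start within 5 Mb, for the 3 pairs of libraries. Members on chromosomes 8 and X lie at the upper right in PC3 against DU145. COX6B2 and COX7B2, with few counts, lie farthest from the rest in DU145 against LNCAP. COX6B2 lies highest in PC3 against LNCAP, and COX7B2 in PC3 against DU145.

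Promoters were read to describe what members of different complexes share, and whether members changed together was not tested. NRF1 and GABPA, an ETS factor, are known activators of respiratory chain genes, and YY1 binds many of their promoters. RefSeq promoter sequences on GRCh38.p14 matched 71 of 88 members, and the 250 bases before each RefSeq start were searched on both strands. For 66 of the 71, the last 30 bases of the sequence lay in a GENCODE transcript of the same gene. The RefSeq start can lie far from the start of the counted gene model, as for COX7A2L, NDUFA5 and NDUFS3. The NRF1 letters (GCGCA, any base, then GCGC) were found in 21.1% of member promoters and 7.65% of 15843 protein-coding promoters (5.53% of all 27305). The ETS letters CCGGAAGT were found in 14.1% of member promoters and 5.09% of protein-coding promoters (3.64% of all). The YY1 letters AAGATGGCG were found in 1.41% and 0.751% (0.641% of all). Matches of different letter sets may share bases at their ends, and a promoter can hold more than 1 set. A match is a description of these letters, not of binding.

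Promoter stretches are shown for members at least 2-fold lower in at least 1 line, cut to the bases outside every annotated exon, with motif matches in capitals. NDUFB4 has 2 NRF1 matches, COX5B and UQCR11 have 1 ETS match each, and COX7B has none. UQCR11 also has an NRF1 match in the 250 bases searched, which is not wholly within the stretch printed.
NDUFB4 (chr3:120596086-120596308, + strand, 223 bases): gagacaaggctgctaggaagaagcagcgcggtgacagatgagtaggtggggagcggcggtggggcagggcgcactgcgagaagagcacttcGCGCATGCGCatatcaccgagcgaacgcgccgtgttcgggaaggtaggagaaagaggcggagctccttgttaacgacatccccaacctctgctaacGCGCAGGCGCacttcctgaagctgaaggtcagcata
COX5B (chr2:97645812-97646039, + strand, 228 bases): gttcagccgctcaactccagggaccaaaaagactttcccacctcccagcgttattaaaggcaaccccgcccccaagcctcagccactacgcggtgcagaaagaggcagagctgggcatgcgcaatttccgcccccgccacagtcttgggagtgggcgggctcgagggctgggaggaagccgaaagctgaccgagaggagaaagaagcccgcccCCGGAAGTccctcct
UQCR11 (chr19:1605491-1605712, - strand, 222 bases): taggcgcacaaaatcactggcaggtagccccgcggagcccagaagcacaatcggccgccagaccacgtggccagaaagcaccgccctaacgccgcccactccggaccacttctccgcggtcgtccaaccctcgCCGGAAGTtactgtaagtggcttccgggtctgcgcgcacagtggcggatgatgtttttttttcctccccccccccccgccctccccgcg
COX7B (chrX:77899218-77899437, + strand, 220 bases): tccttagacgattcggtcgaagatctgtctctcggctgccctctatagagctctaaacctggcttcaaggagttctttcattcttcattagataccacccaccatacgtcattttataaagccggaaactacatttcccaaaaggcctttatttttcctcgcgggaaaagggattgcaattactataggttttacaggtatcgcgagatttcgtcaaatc

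Members with and without the NRF1 letters had like medians. In PC3 against LNCAP the 14 compared members with them had a median log2 ratio of -0.21 and the 54 without them -0.26. In DU145 the medians were -0.33 and -0.49. The 10 members with the ETS letters had medians of -0.65 in PC3 and -0.62 in DU145, beside -0.20 and -0.43 for the 58 without them.

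The genes of the factors themselves were compared too. NRF1 stood at 14.8 CPM in LNCAP, 38.8 in PC3 and 22.4 in DU145, and GABPA at 34.2, 93.5 and 65.3 CPM. LNCAP was the lowest library for both, and both were at least 2-fold higher in PC3. YY1 stood at 136, 194 and 348 CPM. The nuclear receptor gene ESRRA stood at 125, 78 and 66.9 CPM and its coactivator gene PPARGC1B at 26.2, 19.2 and 14 CPM, both highest in LNCAP and under 2-fold apart. PPARGC1A, the best known coactivator of mitochondrial biogenesis, had 5 counts in LNCAP and none in the other lines. Of 8 compared regulators, 2 were at least 2-fold higher in PC3, where 22.6% of all compared genes were. In DU145 1 of the 8 was higher, where 22.9% of all compared genes were. None was at least 2-fold lower, beside 23.6% of all compared genes in PC3 and 23.1% in DU145.

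The name rule leaves out some subunits and their electron carrier. COX4I1, a complex IV subunit, stood at 237.5 CPM in LNCAP, 161 in PC3 and 223 in DU145, and NDUFAB1, the acyl carrier protein of complex I, at 80.8, 50.6 and 37.3 CPM. CYC1, cytochrome c1 of complex III, stood at 271, 359 and 169 CPM, and CYCS, cytochrome c itself, at 273, 223 and 210 CPM. Of these 4 only NDUFAB1 in DU145 was at least 2-fold lower than LNCAP (25%, beside 23.1% of all compared genes).

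The assembly factors, which build the complexes without staying in them, went both ways. Of all compared genes 23.6% were at least 2-fold lower and 22.6% higher in PC3, and 23.1% and 22.9% in DU145. Those of complex V included ATPAF1 and ATPAF2, the chaperones of the F1 beta and alpha subunits. ATPAF1 stood at 149, 65.4 and 41.4 CPM and ATPAF2 at 26.2, 7.33 and 6.96 CPM. Thus 2 of 3 factors were at least 2-fold lower in each line (66.7%). Of 14 complex I factors 1 was lower in PC3 (ACAD9, 71.1 to 34.4 CPM), or 7.14%. In DU145 1 was lower (NDUFAF1, 38.3 to 16.2 CPM) and 1 was higher (NUBPL, 16.8 to 43.3 CPM), or 7.14% each. Of 6 complex III factors UQCC1 was higher in both lines (13.1, 70.4 and 70.7 CPM), or 16.7% in each. In DU145 TTC19 (96.7 to 18.3 CPM) and LYRM7 (73.9 to 26.6 CPM) were lower, or 33.3%. Of 19 compared complex IV factors 2 were lower (10.5%) and 4 higher (21.1%) in PC3. Among them SURF1 stood at 54.0 CPM in LNCAP and 18.2 in PC3, and COX16 at 4.09 and 16.4 CPM. In DU145 2 were lower (COX17 and COX18, 10.5%) and 1 was higher (COX15, 5.26%). Of 4 complex II factors, SDHAF4 was lower in DU145 (25%).

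Other mitochondrial genes gave a frame for the members. Of 13 tricarboxylic acid cycle genes 2 were at least 2-fold lower in PC3 (15.4%, beside 23.6% of all compared genes). In DU145 3 were (23.1%, beside 23.1%), and the medians were -0.51 and -0.80. DLD, the shared dehydrogenase subunit, stood at 242, 107 and 97.7 CPM, and SUCLG2, a succinate-CoA ligase subunit, at 115, 47.5 and 46.5 CPM. The 13 mitochondrially encoded subunits had a median of -0.70 in PC3, with 4 at least 2-fold lower (30.8%, beside 23.6%). In DU145 their median was -0.15, with none (0%, beside 23.1%). Of 10 genes for mitochondrial DNA expression 1, POLG2, was higher in PC3 (10%, beside 22.6%), and the medians were -0.05 and 0.36.

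**Figure D4:**
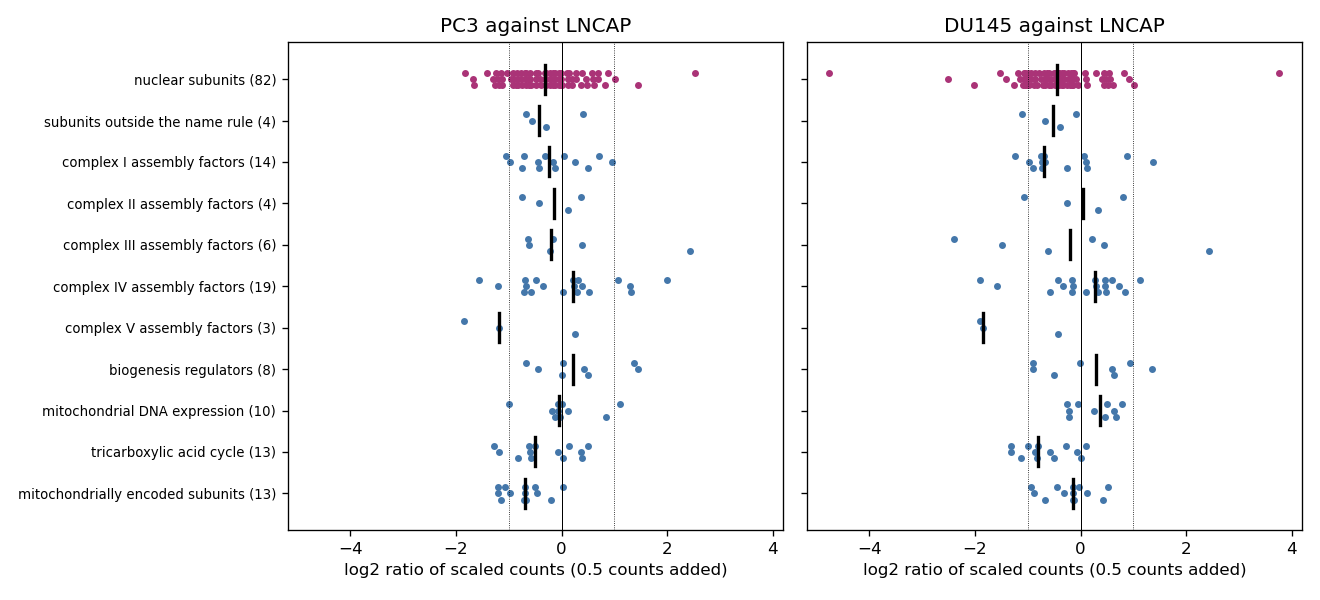
log2 ratios of scaled counts against LNCAP for the 82 compared nuclear subunits and for the other mitochondrial gene lists, 1 point per gene, with the list median as a bar and 2-fold as dotted lines. The medians of the nuclear subunits are -0.30 in PC3 and -0.46 in DU145, and those of the mitochondrially encoded subunits -0.70 and -0.15.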

How the data were processed

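The authors deposited raw read counts per gene (whole numbers, no normalization) and FPKM values for each library. Per the deposited files, the FPKM of a gene is its count over its length and over a library constant (1.03, 1.01 and 0.988 times the total of LNCAP, PC3 and DU145), and the length is the union of annotated exons for all 88 members. Per the submitters' processing notes the tools included Cuffdiff 2.1.1 and Cufflinks 2.1.1, with TopHat2 2.0.9 and Bowtie2 2.0.6. The sources used here do not give their roles, the counting program, strand handling or build. All 58735 identifiers and their coordinates matched GENCODE 29 on GRCh38.

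In R 4.3.3, edgeR 4.0.16 gave TMM factors (1.016, 0.998 and 0.987) that turn counts into scaled CPM. A gene was compared if any library reached 1 CPM. Ratios carry exact 95% intervals (conditional binomial, Clopper-Pearson; Python 3.11.15, scipy 1.17.1, numpy 2.4.6, pandas 2.3.3). A gene was called when its log2 ratio with 0.5 counts added reached 2-fold (or 4-fold) and the interval excluded 1. A fold against a count of 0 is a bound with 3 counts in that library. The class comparison used edgeR's quasi-likelihood test with Benjamini-Hochberg adjustment over all compared genes, and DESeq2 1.42.0 and limma 3.58.1 (voom) as alternatives. The ratio calls were tried on simulated counts with counting error only, and the class test on simulated counts with a preset spread. That spread was not taken from these lines, so the simulations check the code and not the performance on these data.

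The members, gene lists and promoter motifs were chosen with earlier results of these data known. Named were members called in any pair, the highest and lowest of each complex, isoform pairs, members nearest the 2-fold line and called genes of the other lists. Other genes, among them NDUFS1, NDUFV1, UQCRC1, COX5A and the promoters shown, were chosen after their values were seen. For 1 complex I member no single values are reported here.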

Additional observations from a re-analysis of the deposited data

How the results depend on the processing

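Other scalings (DESeq2 size factors, library totals with and without mitochondrially encoded genes), filters, 5 added counts and the deposited FPKM left the medians of the members between -0.39 and -0.28 in PC3 and between -0.53 and -0.42 in DU145, always below those of all genes. In DU145 the count of members at least 2-fold higher was 1 with either library total, a 5 CPM filter or 5 added counts, and 0 among members at a mean of 20 CPM or more. In PC3 against DU145 the lower members numbered 1 with a 5 CPM filter, 5 added counts or FPKM and 0 at a mean of 20 CPM, where the higher ones numbered 5; the filters compared fewer genes. ATP5PO in PC3 (0.94 and 1.0) and NDUFB8 in DU145 (0.94 and 0.97) did not pass 2-fold with library totals, and of 43 called values 37 kept their call throughout. By summed CPM the ratios to LNCAP were 0.681 (I), 1.47 (II), 0.706 (IV), 0.651 (V) and 0.703 (all members) in DU145. In PC3 they were 1.23 (II), 0.664 (III) and 0.896 (IV). FPKM is divided by gene length and scaled CPM is not, so genes weigh differently in the sums, and the library constants differ too. Whole-chromosome medians gave r of 0.22 and rho of 0.28 in PC3 against LNCAP. They gave 0.27 and 0.34 in DU145 against LNCAP, and 0.28 and 0.39 in PC3 against DU145. Each rho was below that of the 5 Mb window. The filter at a mean of 20 CPM and the addition of pseudogene counts were chosen after seeing the data. No paired analysis was possible because each line has 1 library, and leaving out a CRPC library leaves no residual degrees of freedom. A count of 0 allowed up to 3 counts, 0.189 to 0.196 CPM.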
